A study of Mus musculus with 16 samples.

Results

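The change of the translation ratio with betaine was examined in mouse liver. For each gene, the translation ratio is the level in ribosome-bound mRNA over the level in total mRNA, and its change is the log2 ratio in the high-fat diet with betaine (HB) minus the log2 ratio in the high-fat diet alone (HF). Members were genes with at least 10 CPM (library-scaled read counts) in each of the 4 mRNA libraries and more than 20 reads in each of the 4 ribosome-bound libraries. These limits kept 5148 of the 24539 genes in the tables (21.0%), so members were selected on their levels in both kinds of library. Of 6531 genes at 10 CPM or more in each mRNA library, 1383 were left out for low ribosome-bound counts, and 181 of those were low in HB only, 845 in HF only and 357 in both diets. A gene counted as low in a diet where any ribosome-bound library of that diet held 20 reads or fewer. The HF ribosome-bound libraries were shallower than the HB pair and differed far more from each other, as given below. The higher HF count therefore does not show a lower ribosome-bound level in that diet. The read limit still bears on the size and the direction of the ratio changes that remain.

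Both groups were male C57BL/6 mice that entered the feeding period at 8 weeks of age, were fed for 8 weeks and were 16 weeks old at sampling. The HB mice ate the high-fat diet with added betaine, and the HF mice ate the high-fat diet without it. Every animal therefore received the high-fat diet, and no group on a standard diet was analysed here. Per the labels, each library was made from a pool of 2 independent experiments, and nothing says that the libraries of a group came from separate animals, so p-values measure only the spread between these pools. For each diet there were 2 libraries of total polyadenylated mRNA, 2 of mRNA bound to ribosome-nascent chain complexes (RNC) pelleted through sucrose, and 2 deposited lists of m6A peaks.

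Betaine is a methyl donor that liver cells use, through Bhmt, to turn homocysteine back into methionine. An mRNA that is loaded with ribosomes sediments with them, so the RNC fraction samples the mRNAs engaged in translation. When a transcript changes in amount and its ribosome-bound amount changes less, the change is called buffered at the ribosome, and when the ribosome-bound amount changes more, it is called amplified. An mRNA can also be bound by ribosomes without being actively elongated, and the RNC fraction does not tell these states apart.

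The mRNA libraries held 22492813 and 18011999 reads in HB and 11437462 and 11570775 in HF. Ribosome-bound libraries were shallower, with 6508500 and 8659310 reads in HB and 5778439 and 6431510 in HF. Members took up 90.7% to 93.2% of the reads of every library. The HB ribosome-bound pair stood apart from the other pairs of replicates, because its counts differed little more than repeated reads of a single library would (chi-square over its degrees of freedom 1.40, while ribosome-bound HF replicates gave 98.0, HB mRNA replicates 98.5 and HF mRNA replicates 34.7). The HB pair was therefore summed and counted as 1 sample, and the HB ribosome-bound level has no replicate of its own. Where ribosome-bound values of a gene are said below not to overlap between diets, the HB side is thus 1 sample. Over members, the SD of the log2 difference between the HF ribosome-bound replicates was 1.12, and that between HB and HF ribosome-bound libraries was 1.07 to 1.11, so a ribosome-bound change of a typical member was no larger than the spread between the HF pools. For mRNA the diets differed with an SD of 0.741 to 1.02, against 0.533 between the HB replicates and 0.375 between the HF replicates.

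Across members, the HB libraries of both kinds were less alike than those of HF. The correlation of log2 CPM between ribosome-bound and total mRNA was 0.597 to 0.663 in HB and 0.729 to 0.754 in HF, over 5148 genes. HB ribosome-bound levels were closer to HF mRNA (0.739 to 0.742) than to HB mRNA. HF ribosome-bound levels correlated with HB mRNA at 0.550 to 0.634 and with HB ribosome-bound levels at 0.804 to 0.818. The HB mRNA libraries were thus the ones farthest from all ribosome-bound libraries, those of their own diet included. All hepatocyte markers had reads in every library. Their summed level was 115355 to 120632 CPM in HB mRNA and 81271 to 86574 CPM in HF mRNA, while the ribosome-bound sums were 55001 to 55112 CPM in HB and 50171 to 64469 CPM in HF. Summed markers of Kupffer cells were also higher in HB mRNA (589 to 602 CPM) than in HF mRNA (359 to 415 CPM), and 4 of their 13 genes (Vsig4, Adgre1, Timd4 and Lyz2) were at 0 in some library. Red cell and neutrophil markers summed to 610 and 1771 CPM in HB mRNA and 391 to 462 CPM in HF mRNA, with 7 of 11 at 0 in some library. Stellate cell markers summed to 247 to 310 CPM in HB mRNA and 158 to 186 CPM in HF mRNA (7 of 11 at 0 in some library), and endothelial markers to 321 to 458 CPM in HB mRNA and 538 to 606 CPM in HF mRNA (3 of 9). Ribosome-bound sums of stellate markers ran the other way, at 68.2 to 73.2 CPM in HB and 135 to 184 CPM in HF. Those of endothelial markers were 388 to 419 CPM in HB and 475 to 506 CPM in HF. Kupffer cell markers had 387 to 403 and 302 to 450 CPM, and red cell and neutrophil markers 640 to 657 and 349 to 467 CPM. In bulk tissue, fewer cells of a type and less RNA per cell cannot be told apart, and the part of cell composition in the ratio changes was not tested.

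**Figure D1:**
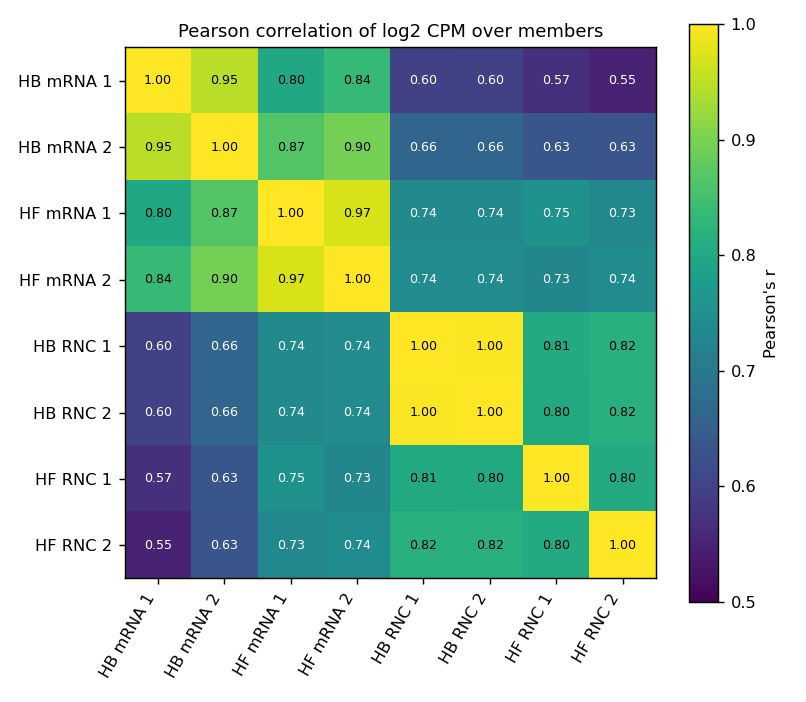
Pearson correlation of log2 CPM between the 8 libraries over the 5148 member genes, on a colour scale that starts at 0.5 (RNC, ribosome-bound; numbers are replicates). The HB mRNA libraries correlate with the ribosome-bound libraries of either diet at 0.550 to 0.663, and the HF mRNA libraries at 0.729 to 0.754.

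The first question was how much of each mRNA change with betaine was seen in ribosome-bound mRNA. Little of it was. The log2 change of ribosome-bound mRNA had a least-squares slope of 0.142 on the log2 change of total mRNA over the 5148 members, with Pearson's r 0.126 and Spearman's rho 0.126, where a slope of 1 would mean full transmission. No library enters both axes, and genes are not independent replicates, so these are descriptions. Error in the mRNA change lowers such a slope. The mRNA changes of the 2 replicate pairs, which share no library, correlated at 0.747, and the slope lay between 0.0663 and 0.182 in each of the 8 combinations of single HB mRNA, HF mRNA and HF ribosome-bound libraries. The SD over members was 0.82 for the mRNA change, 0.92 for the ribosome-bound change and 1.15 for the ratio change, whose median was -0.01.

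The slope was steeper among genes with more reads. Where the poorest ribosome-bound library held 21 to 100 reads (1389 members) it was 0.0686, with 101 to 500 reads (2443 members) 0.157, and above 500 reads (1316 members) 0.221, where Pearson's r was 0.31. The SD of the ratio change was 1.46, 1.05 and 0.89 in these depth classes, so the spread was widest in the shallow genes. At the read limit itself, 83 members with 21 to 25 reads in their poorest library had a median ratio change of -0.08 (SD 1.72), and 51 genes just outside it, with 16 to 20 reads, had -0.42 (SD 1.82).

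**Figure D2:**
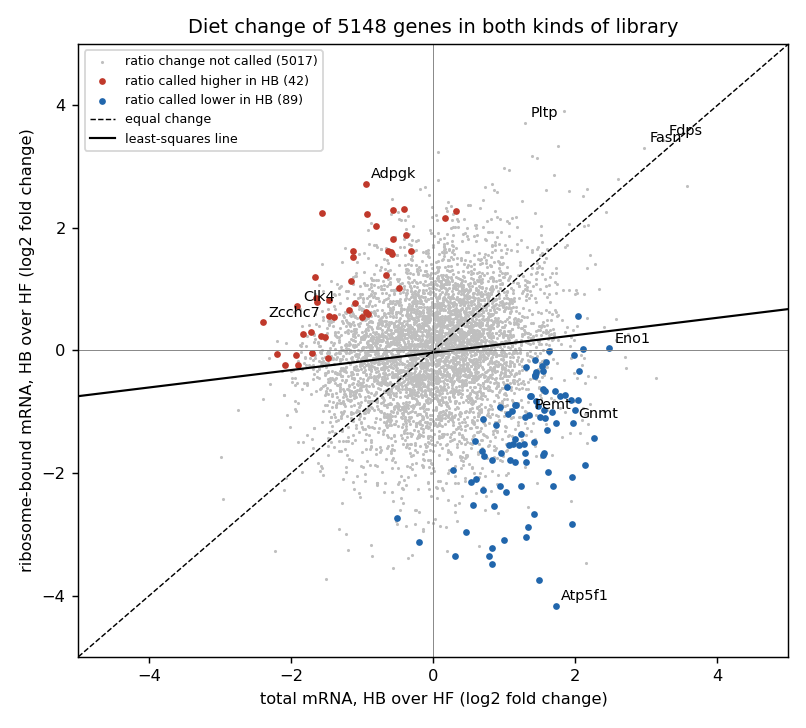
Each point is 1 of the 5148 members, with the log2 change of total mRNA (HB over HF) on the horizontal axis and that of ribosome-bound mRNA on the vertical axis. The dashed line marks equal change. The cloud is nearly flat (slope 0.142), and the genes whose ratio change passed the test lie mostly at the lower right and the upper left.

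Binned by the size of the mRNA change, the median ribosome-bound change was far smaller than the mRNA change on both sides. In the 557 members whose mRNA was lower by 1 to 2 on the log2 scale (median -1.28) the median ribosome-bound change was -0.23, and in the 20 members beyond -2 (median -2.17) it was -0.72. In the 529 members whose mRNA was higher by 1 to 2 (median 1.29) the ribosome-bound median was 0.11, and in the 48 members above 2 (median 2.17) it was 0.02. In the 768 members whose mRNA was lower by 0.5 to 1 (median -0.72) the ribosome-bound median was -0.08. In the 908 members higher by 0.5 to 1 (median 0.71) it was 0.12. The falling side was thus farther from 0 only where mRNA changed by more than 1. The 2318 members with an mRNA change within 0.5 in either direction had a ribosome-bound median of 0.05.

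**Figure D3:**
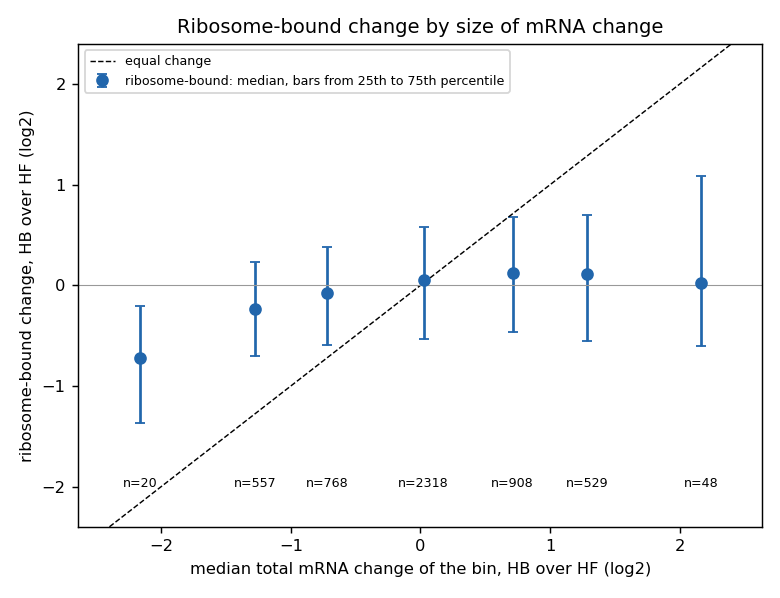
Median log2 change of ribosome-bound mRNA (HB over HF, vertical axis, bars from the 25th to the 75th percentile over genes) against the median log2 change of total mRNA in 7 bins of the mRNA change. The medians run from -0.72 in the lowest bin to 0.02 in the highest and leave the dashed line of equal change on both sides.

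Genes with a called mRNA change were then sorted by the share of it that ribosome-bound mRNA showed. An mRNA counts as risen or fallen where edgeR's quasi-likelihood test on the 4 mRNA libraries gave a Benjamini-Hochberg adjusted p under 0.05. Of the members 718 rose (13.9%) and 638 fell (12.4%), against 11.3% risen and 10.1% fallen of all 12817 genes tested. With library totals in place of edgeR's TMM scaling, 374 members rose and 1143 fell. The balance of risen and fallen mRNAs thus depends on the scaling, and the counts in the gene lists below rest on TMM too. Among the 718 that rose, ribosome-bound mRNA moved the opposite way in 338 (47.1%), by under 0.5 of the mRNA change in 181 (25.2%), by 0.5 to 1.5 of it in 171 (23.8%) and by more in 28 (3.90%). Their median mRNA change was 1.21 and their median ribosome-bound change 0.10. Among the 638 that fell, 242 (37.9%) had an opposite ribosome-bound change, 223 (35.0%) one of under 0.5 of the mRNA change, 157 (24.6%) one of 0.5 to 1.5 and 16 (2.51%) a larger one, with medians of -1.24 in mRNA and -0.19 in ribosome-bound mRNA. The 3792 members with no mRNA call had medians of 0.04 in both, and 1702 of them (44.9%) had an opposite ribosome-bound change. The opposite shares of the risen and fallen mRNAs were near or below that of members with no mRNA call, so nothing is read from those shares. The mRNA calls moved with single libraries: without HB mRNA replicate 1, HB mRNA replicate 2, HF mRNA replicate 1 and HF mRNA replicate 2, the risen members numbered 358, 801, 136 and 267 and the fallen ones 172, 865, 196 and 419. A ribosome-bound change in the same direction of at least 2-fold was seen in 119 of the risen and 88 of the fallen mRNAs.

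The ratio and the mRNA change share the mRNA libraries, so a gene picked for a high mRNA level in HB has a low ratio in HB by construction. To take the picking apart from the measuring, genes that changed at least 2-fold in replicate 1 of each diet were measured in replicate 2. The 764 that were higher in replicate 1 had a median mRNA change of 0.96 in replicate 2, a ribosome-bound change of 0.12 and a ratio change of -0.890. The 886 that were lower had -0.73, -0.18 and 0.573. Chosen in replicate 2 and measured in replicate 1, 536 higher genes had 1.31, 0.14 and -1.19, and 375 lower genes had -1.41, -0.15 and 1.29. In libraries that did not choose the genes, the ribosome-bound median was thus again far smaller than the mRNA median, on both sides.

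For single genes, the ratio change was tested as the interaction of diet and kind of library in edgeR's quasi-likelihood fit of 7 libraries. The fit takes 1 spread per gene for both kinds of library. HF ribosome-bound replicates differed more (SD 1.12) than HB and HF mRNA replicates (0.533 and 0.375). The SEs and adjusted p-values of the ratio change can therefore be too small. With limma voom, which weighted each kind of library by its own spread, nearly all calls were lost, as given at the end. Far fewer members also had an unadjusted p under 0.05 there than in the edgeR fit. Of the 5148 members 131 passed an adjusted p of 0.05 (2.54%), 42 with a higher and 89 with a lower ratio in HB, against 10.5% of all 12634 genes tested (6.49% higher, 4.02% lower), and 816 members had an unadjusted p under 0.05. The share called was thus lower among members than among all genes tested, and lower ratios made up most of the members' calls but not most of the calls over all genes, which had 820 higher and 508 lower. With library totals in place of TMM scaling, the members' calls were 70 higher and 62 lower. The genes outside the member limits include those with a ribosome-bound library near 0 reads, where log2 ratios are widest. Of the 131, 102 ran against a called mRNA change (73 lower where mRNA rose, 29 higher where it fell), 0 ran with one, and 29 had no mRNA call. Both tests use the same mRNA libraries, so these counts are a description. A ratio call is not a call of the ribosome-bound change alone, whose HB side is 1 sample. In the same fit, that change was not called for several genes named below: Gnmt, Pemt, Eef2, Eif5a, Psmb7, Atp5a1, Clk4 and Zcchc7. For ratios by library, the summed HB ribosome-bound level was set over each HB mRNA library. Each HF ribosome-bound library was set over the HF mRNA library of the same number, although same-numbered deviations correlated only weakly in HF (0.226). In 1675 members (32.5%) both HB ratios lay above both HF ratios and in 1517 (29.5%) both lay below, against 33.4% and 28.2% of the 6592 genes with reads in every library. These calls rest on all 4 mRNA libraries: 0 members were called without HB mRNA replicate 1, HB mRNA replicate 2, HF mRNA replicate 1 or HF mRNA replicate 2, with 508, 705, 312 and 367 at an unadjusted p under 0.05. That holds for every ratio call named in what follows. With an mRNA library left out, that mRNA group has no replicate and is assumed to vary like the others. Without HF ribosome-bound replicate 1 or 2 the count was 1200 or 1314, but then only mRNA libraries were left to estimate the spread.

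The 8 largest called falls of the ratio were in Atp5f1, Mipep, Abat, Akr1c20, Rab18, Acad11, Lta4h and Fkbp1a. They were low in HB ribosome-bound mRNA more than they were high in HB mRNA. Atp5f1, a subunit of the mitochondrial ATP synthase stalk, had 368 and 283 CPM in HB mRNA, against 84.1 and 111 CPM in HF mRNA. Its ribosome-bound level was 3.14 and 2.36 CPM in HB (22 and 22 reads), against 26.1 and 72.6 CPM in HF (171 and 533 reads). Neither level overlapped between diets, and the log2 ratio change was -5.91 (SE 0.98, adjusted p = 0.0323). Mipep, a peptidase that matures imported mitochondrial proteins (chromosome 14, 60784562 to 60905481, GRCm38.p6), had 47.6 and 52.0 CPM in HB mRNA and 17.0 and 18.3 CPM in HF mRNA. In ribosome-bound mRNA Mipep had 4.00 and 3.65 CPM in HB and 64.8 and 37.9 CPM in HF, a ratio change of -5.24 (SE 0.69, adjusted p = 0.0319). For both genes the counts behind the HB ribosome-bound level are few.

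Abat, which breaks down the transmitter GABA, had a ratio change of -4.80 (SE 0.75), with an mRNA change of 1.95 and a ribosome-bound change of -2.83. Akr1c20, an aldo-keto reductase, and Acad11, an acyl-CoA dehydrogenase, had ratio changes of -4.36 (SE 0.54) and -4.23 (SE 0.77). Rab18, a GTPase found on lipid droplets, and Lta4h, which makes leukotriene B4, had ratio changes of -4.33 (SE 0.82) and -4.15 (SE 0.82) without an mRNA call (mRNA changes 0.82 and 0.78). Fkbp1a, the small binding protein of the drug FK506, had -4.09 (SE 0.61). In these 6 genes the ribosome-bound changes were -2.83 for Abat, -3.04 for Akr1c20, -2.88 for Acad11, -3.49 for Rab18, -3.36 for Lta4h and -3.09 for Fkbp1a. Rac1, a GTPase that controls the actin skeleton, was among the most opposite genes too, at 131 and 118 CPM in HB mRNA and 56.4 and 64.8 CPM in HF mRNA, but 12.1 and 15.2 CPM in HB ribosome-bound mRNA and 56.9 and 82.2 CPM in HF ribosome-bound mRNA (ratio change -3.35, SE 0.47, adjusted p = 0.0319).

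The 8 largest called rises of the ratio were in Zfp263, Adpgk, Cep85, Erbin, Zcchc7, Gm10012, Secisbp2 and Agrn. Zfp263, a zinc finger transcription factor (chromosome 16, 3744099 to 3750790, GRCm38.p6), had 17.4 and 16.0 CPM in HB mRNA and 52.1 and 46.2 CPM in HF mRNA. Its ribosome-bound level ran the other way, with 28.3 and 26.5 CPM in HB and 5.35 and 6.13 CPM in HF (ratio change 3.80, SE 0.57, adjusted p = 0.0319). Adpgk, an ADP-dependent glucokinase, had 21.1 and 19.4 CPM in HB mRNA and 39.1 and 38.8 CPM in HF mRNA, but 36.7 and 34.3 CPM in HB ribosome-bound mRNA and 6.11 and 4.50 CPM in HF ribosome-bound mRNA (ratio change 3.67, SE 0.61, adjusted p = 0.0323). Zcchc7, a zinc knuckle protein of nuclear RNA surveillance, was 14.8 and 15.9 CPM in HB mRNA and 77.0 and 83.6 CPM in HF mRNA. Its ribosome-bound level was 284 and 280.5 CPM in HB and 229 and 180.4 CPM in HF, so its ratio change of 2.85 (SE 0.34) came mainly from the mRNA side.

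Secisbp2, which recodes a stop codon for selenocysteine, and Erbin, a scaffold at the basolateral membrane, had ratio changes of 2.83 (SE 0.57) and 2.85 (SE 0.54) with no mRNA call. Secisbp2 had 31.1 and 33.2 CPM in HB ribosome-bound mRNA and 7.80 and 7.90 CPM in HF ribosome-bound mRNA. Cep85, a centrosome protein, had 3.14 (SE 0.53), and Agrn, the basement membrane protein agrin, had 2.75 (SE 0.52). Gm10012, a predicted gene to which no role is given here, had 2.84 (SE 0.48).

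**Figure D4:**
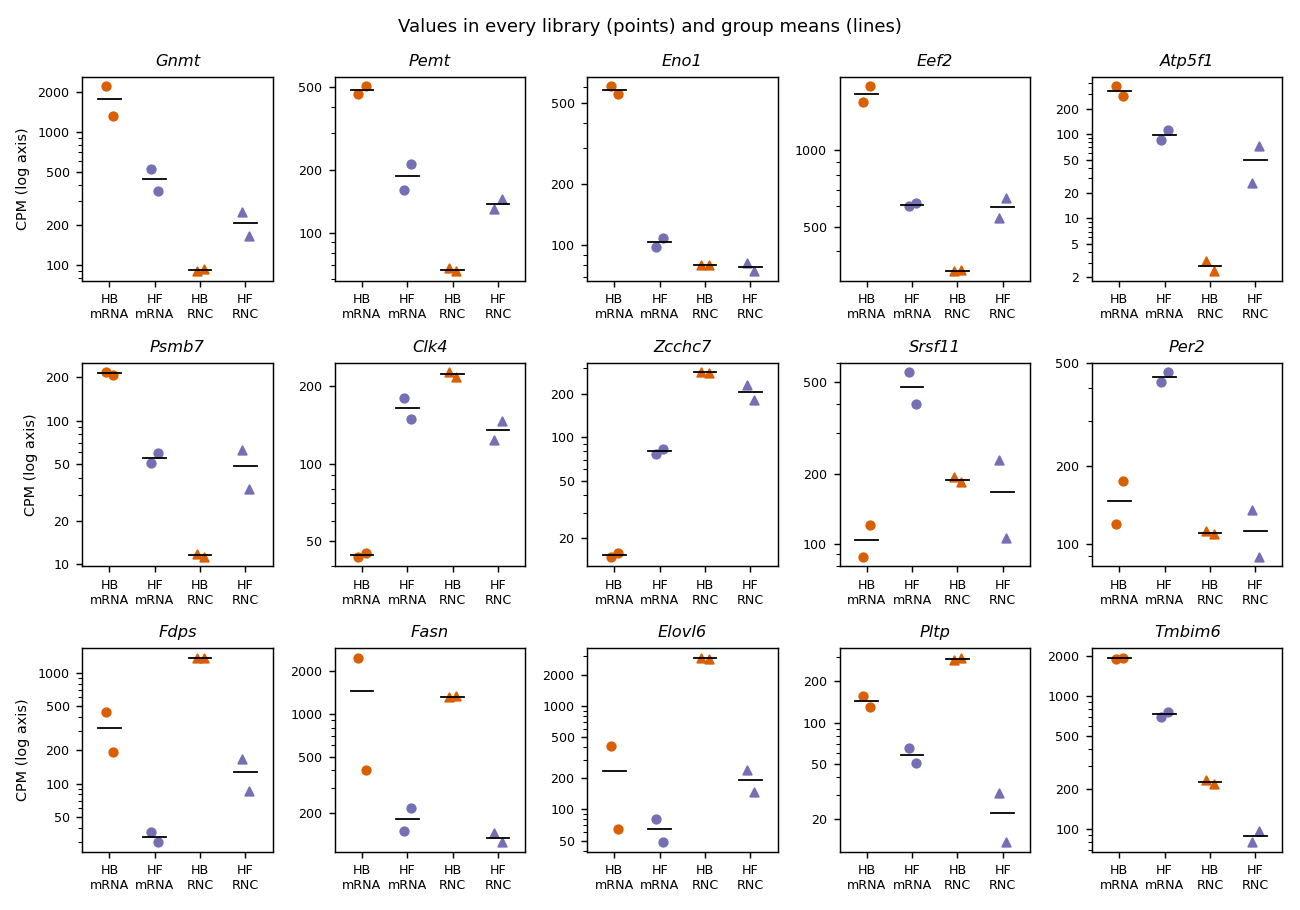
Level in every library (points, CPM on a log axis that differs between panels) and group mean (line) for 15 members, with HB in orange and HF in purple, circles for total mRNA and triangles for ribosome-bound mRNA. Gnmt, Pemt, Eef2, Atp5f1 and Psmb7 are higher in HB mRNA and lower in HB ribosome-bound mRNA. Clk4 and Zcchc7 run the other way, and Fdps and Fasn are higher in HB in both. The ribosome-bound change alone was not called for Gnmt, Pemt, Eef2, Psmb7, Clk4, Zcchc7 or Fasn.

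Some mRNAs rose or fell at least 2-fold while the mean ribosome-bound level hardly differed. The glycolytic enzymes Eno1 and Tpi1 were among them. Eno1, enolase (chromosome 4, 150236708 to 150248879, GRCm38.p6), had 603 and 556 CPM in HB mRNA and 98.1 and 109 CPM in HF mRNA (log2 change 2.47, SE 0.30, adjusted p = 0.00403). Its ribosome-bound level was 79.7 and 80.2 CPM in HB and 81.8 and 74.5 CPM in HF, a change of 0.03. Tpi1, triose phosphate isomerase, had an mRNA change of 2.11 and a ribosome-bound change of 0.01. The ratio change was called for both, at -2.45 (SE 0.31, adjusted p = 0.0319) for Eno1 and -2.11 (SE 0.36, adjusted p = 0.0336) for Tpi1. Eno1 and Tpi1 have near-identical processed copies in the genome, so their counts are uncertain where the authors' counting could split reads.

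Dbi, the acyl-CoA binding protein, and Trf, the iron carrier transferrin, were similar cases. Dbi had 1225 and 1376 CPM in HB mRNA and 436 and 394 CPM in HF mRNA, with 280.0 and 289 CPM in HB ribosome-bound mRNA and 296 and 279 CPM in HF ribosome-bound mRNA (ratio change -1.66, SE 0.30, adjusted p = 0.0353). Trf had an mRNA change of 1.36 and a ribosome-bound change of -0.01, and its ratio change of -1.39 was not called (adjusted p = 0.0835). On the falling side, Stk38, a serine/threonine kinase, had 67.1 and 77.8 CPM in HB mRNA and 212 and 140.5 CPM in HF mRNA, with 175 and 170.4 CPM in HB ribosome-bound mRNA and 173 and 171 CPM in HF ribosome-bound mRNA. Taf1, a subunit of the general transcription factor TFIID, Safb, a scaffold attachment factor, and Pitpnm2, a lipid transfer protein, also fell in mRNA (-1.12, -1.27 and -1.25) with ribosome-bound changes of -0.01, 0.01 and -0.01. Of these 4, 0 passed the test of the ratio change (adjusted p 0.174 for Stk38, 0.331 for Taf1, 0.319 for Safb and 0.298 for Pitpnm2).

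In other genes, picked because their 2 changes were nearest to equal, the ribosome-bound change was close to the mRNA change. Tmbim6, a calcium channel regulator of the endoplasmic reticulum, had 1913 and 1961 CPM in HB mRNA and 701 and 769 CPM in HF mRNA. Its ribosome-bound level was 237 and 219 CPM in HB and 79.6 and 98.0 CPM in HF, with changes of 1.38 in mRNA and 1.35 in ribosome-bound mRNA and a ratio change of -0.05 (SE 0.31). Scarb2, a lysosomal membrane protein, had 1.46 and 1.43, and Hsd17b12, an enzyme of fatty acid elongation, 1.61 and 1.65. The HF ribosome-bound values of Hsd17b12 were far apart (6.11 and 18.3 CPM, ratio change 0.03, SE 0.77). Among fallen mRNAs, Usp2, a deubiquitinase that cycles with the clock, had 62.8 and 85.7 CPM in HB mRNA and 169 and 152 CPM in HF mRNA, with 155 and 151 CPM in HB ribosome-bound mRNA and 389.7 and 287 CPM in HF ribosome-bound mRNA (changes of -1.13 and -1.15). Pogz, a chromatin protein, had -1.48 and -1.43, with HF ribosome-bound values of 22.8 and 53.8 CPM (ratio change 0.03, SE 0.79). Pde2a, a cyclic nucleotide phosphodiesterase, had -1.03 in both, but its 2 HF ribosome-bound values were far apart (43.6 and 9.54 CPM), and without HF ribosome-bound replicate 1 its ratio change was 1.46.

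A ribosome-bound change of more than 1.5 times the mRNA change was seen in the 28 risen and 16 fallen mRNAs given above. The mRNA change is the denominator of that share, so a large mRNA change makes it small, and the counts are a description. Pltp, the phospholipid transfer protein of plasma (chromosome 2, 164839518 to 164857708, GRCm38.p6), had 156 and 129.7 CPM in HB mRNA and 65.3 and 50.6 CPM in HF mRNA. Its ribosome-bound level was 286 and 296 CPM in HB and 30.9 and 13.5 CPM in HF, a change of 3.71 against 1.29 in mRNA. No value overlapped between diets, but the ratio change of 2.42 (SE 0.68) was not called (adjusted p = 0.120). Fam213a, a peroxiredoxin-like protein, had 1.45 in mRNA and 3.14 in ribosome-bound mRNA (adjusted p = 0.184 for the ratio), Cox7a2, a subunit of cytochrome oxidase, 1.07 and 2.95 (adjusted p = 0.468), and Chmp4b, which helps to cut membranes, 1.04 and 2.11 (adjusted p = 0.452). On the falling side Mdn1, a ribosome assembly ATPase, had -1.20 and -3.26, with HF ribosome-bound values of 80.6 and 16.5 CPM (adjusted p = 0.423).

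Among enzymes of the methionine cycle and methyl transfer, 20 of 24 listed genes were members, 5 rose and 0 fell in mRNA, and 15 of 20 had a ratio change below 0. The median change was 0.44 in mRNA, -0.52 in ribosome-bound mRNA and -0.37 in the ratio, against 0.05, 0.01 and -0.01 over all members. Of the 20, 3 were called in the ratio, and this count and those of the lists that follow stand beside 2.54% of members and 10.5% of all genes tested. Gnmt, which spends S-adenosylmethionine on glycine (chromosome 17, 46725664 to 46729211, GRCm38.p6), had 2185 and 1302 CPM in HB mRNA and 527 and 356 CPM in HF mRNA. Its ribosome-bound level was 89.4 and 92.9 CPM in HB and 250.1 and 165 CPM in HF, so neither level overlapped and they moved in opposite directions (ratio change -3.16, SE 0.66, adjusted p = 0.0487). Pemt, which methylates phosphatidylethanolamine to phosphatidylcholine (chromosome 11, 59970614 to 60046561, GRCm38.p6), had 461 and 501 CPM in HB mRNA and 161 and 213 CPM in HF mRNA, with 67.9 and 65.5 CPM in HB ribosome-bound mRNA and 129.9 and 145 CPM in HF ribosome-bound mRNA (ratio change -2.41, SE 0.37, adjusted p = 0.0319).

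For Gnmt and Pemt the ribosome-bound fall alone was not called. Mthfd1, the folate enzyme that supplies one-carbon units, was the other called member of that list. It had 297 and 221 CPM in HB mRNA and 123 and 114 CPM in HF mRNA, against 60.7 and 64.5 CPM in HB ribosome-bound mRNA and 124 and 126 CPM in HF ribosome-bound mRNA (ratio change -2.12, SE 0.37, adjusted p = 0.0343). Bhmt itself, the enzyme that consumes betaine, had 3134 and 3711 CPM in HB mRNA and 3607 and 1550.3 CPM in HF mRNA, which overlap. In ribosome-bound mRNA Bhmt had 827 and 826 CPM in HB and 4655 and 1547 CPM in HF. Its ratio change of -2.32 (SE 1.08) was not called (adjusted p = 0.331). Mat1a, which makes S-adenosylmethionine in liver, differed little in either fraction (mRNA change 0.00, ratio change 0.18, SE 0.46, not called).

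In lipid synthesis the list medians were high in HB in ribosome-bound mRNA as well as in total mRNA. Of 24 measured cholesterol synthesis genes 15 were members, 13 rose and 0 fell in mRNA, and the medians were 1.85 in mRNA and 1.59 in ribosome-bound mRNA, with a median ratio change of -0.17 and 0 genes called. Of 25 genes of fatty acid and triglyceride synthesis 20 were members, 10 rose and 1 fell, with medians of 1.47, 0.88 and 0.11 and 0 ratio calls. Fdps, which makes farnesyl diphosphate, had 442 and 193 CPM in HB mRNA and 36.9 and 29.5 CPM in HF mRNA, with 1377 and 1359 CPM in HB ribosome-bound mRNA and 168 and 85.0 CPM in HF ribosome-bound mRNA (mRNA change 3.24, ribosome-bound change 3.43, ratio change 0.17, SE 0.83). Fasn, the fatty acid synthase, had mRNA and ribosome-bound changes of 2.96 and 3.30, but its HB mRNA values of 2495 and 399.6 CPM were far apart.

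Not every lipid gene had parallel changes. Elovl6, an elongase of fatty acids, had 407 and 65.2 CPM in HB mRNA and 81.1 and 48.0 CPM in HF mRNA, an overlap, but 2921 and 2844 CPM in HB ribosome-bound mRNA and 238 and 146 CPM in HF ribosome-bound mRNA (ratio change 2.04, SE 1.36, adjusted p = 0.478). Stard4, a carrier of sterols in the cytosol, was the opposite case, with 136 and 44.5 CPM in HB mRNA and 17.8 and 28.8 CPM in HF mRNA, but 5.29 and 4.72 CPM in HB ribosome-bound mRNA and 19.9 and 35.3 CPM in HF ribosome-bound mRNA (ratio change -4.41, SE 1.16, adjusted p = 0.0987). Msmo1, a sterol oxidase, had 2.74 in mRNA and 0.27 in ribosome-bound mRNA, and Plin2, which coats lipid droplets, 2.58 and 0.51 (adjusted p 0.257 and 0.243 for the ratio). Mlxipl, the carbohydrate-responsive transcription factor ChREBP, was the fallen mRNA of these lists, with changes of -1.39 in mRNA and 0.26 in ribosome-bound mRNA.

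**Figure D5:**
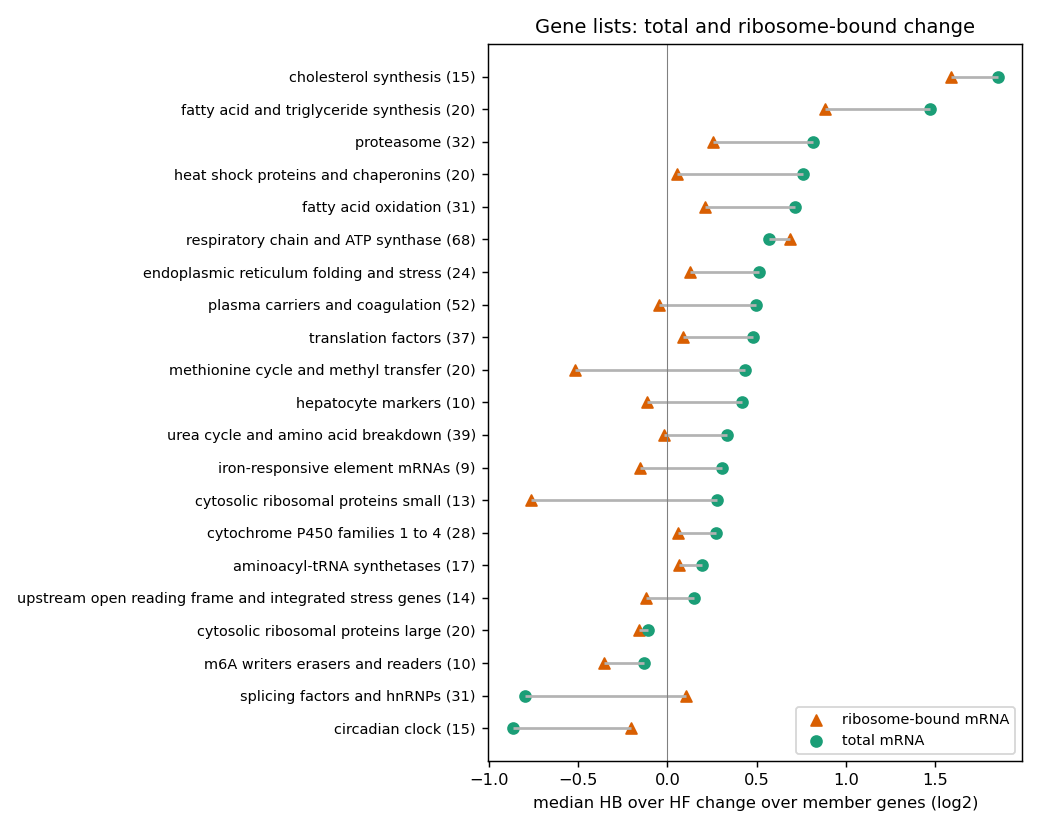
Median log2 change (HB over HF) of ribosome-bound mRNA (triangles) and total mRNA (circles) over the members of each gene list, with the number of members in parentheses. The pairs are close for cholesterol synthesis (1.59 and 1.85) and the respiratory chain (0.69 and 0.57) and far apart for splicing factors (0.10 and -0.80).

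Fatty acid oxidation was a list with a nearly uniform sign. Of its 33 genes 31 were members, 14 rose and 0 fell in mRNA, and 28 of 31 had a ratio change below 0. The medians were 0.71 in mRNA, 0.21 in ribosome-bound mRNA and -0.78 in the ratio. In the 908 members whose mRNA was higher by 0.5 to 1 they were 0.71, 0.12 and -0.61. A lower ratio is thus not particular to this list. In 23 of 31 both HB ratios lay below both HF ratios, against 29.5% of members and 28.2% of the 6592 genes with reads in every library, and 1 gene was called. Echs1, an enoyl-CoA hydratase, had the largest ratio change of the list at -3.40 (SE 0.94, adjusted p = 0.114).

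The respiratory chain did not follow that sign. Of 69 genes 68 were members, 20 rose and 0 fell in mRNA, and 30 of 68 had a ratio change below 0. Medians were 0.57 in mRNA, 0.69 in ribosome-bound mRNA and 0.23 in the ratio. Its called members split, with 4 lower and 1 higher. Beside Atp5f1, the lower ones included Atp5a1, the catalytic core's alpha subunit, at 1384 and 1024 CPM in HB mRNA and 285 and 340.2 CPM in HF mRNA, against 147 and 145 CPM in HB ribosome-bound mRNA and 201 and 311 CPM in HF ribosome-bound mRNA (ratio change -2.76, SE 0.51, adjusted p = 0.0369). Ndufb6, of complex I, had -3.16 (SE 0.52, adjusted p = 0.0323). Ndufa5, also of complex I and the 1 higher gene, had 568 and 588 CPM in HB ribosome-bound mRNA and 249.9 and 246 CPM in HF ribosome-bound mRNA, while its mRNA was 139 and 191 CPM in HB and 268 and 249.6 CPM in HF (ratio change 1.87, SE 0.35, adjusted p = 0.0378).

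Protein quality control had risen mRNAs with smaller ribosome-bound changes. So did the 908 members whose mRNA was higher by 0.5 to 1, with medians of 0.71, 0.12 and -0.61 in the ratio. Of 34 proteasome genes 32 were members, 15 rose and 0 fell, and the medians were 0.81 in mRNA, 0.25 in ribosome-bound mRNA and -0.65 in the ratio, with 24 of 32 below 0 and 2 called, both lower (over all members 89 of 5148 were called lower, and 4.02% of all genes tested). Psmb7, a catalytic subunit, had 218 and 209 CPM in HB mRNA and 50.9 and 58.9 CPM in HF mRNA, against 11.7 and 11.2 CPM in HB ribosome-bound mRNA and 62.5 and 33.4 CPM in HF ribosome-bound mRNA (ratio change -4.03, SE 0.61, adjusted p = 0.0319). Psmc1, an ATPase of the regulatory particle, had -2.11 (SE 0.40, adjusted p = 0.0378). Of 20 member heat shock proteins and chaperonins 8 rose and 0 fell, with medians of 0.76, 0.06 and -0.85, and 0 ratio calls. Hspa1b, the inducible HSP70, had the largest ratio change of that list, -3.28 (SE 0.74, adjusted p = 0.0621), and Hsph1, a nucleotide exchange factor for HSP70, ran the other way with a ribosome-bound change of 1.86 on an mRNA change of 0.01.

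Secreted plasma proteins had a list median of 0.50 in mRNA, -0.05 in ribosome-bound mRNA and -0.70 in the ratio (52 members of 55, 13 risen and 2 fallen in mRNA, 43 of 52 below 0, 1 ratio call). Mug1, a protease inhibitor of the macroglobulin family, had no mRNA call, and its ribosome-bound level was 1287 and 1279.8 CPM in HB and 6147 and 9852 CPM in HF (ratio change -2.45, SE 0.62, adjusted p = 0.0875). Its relatives in the same family are close in sequence, so its counts are uncertain. Fga, the alpha chain of fibrinogen, rose in mRNA by 1.30 and had a ribosome-bound change of -1.01. Albumin mRNA (Alb) had 77730.3 and 61849 CPM in HB and 43734 and 51782 CPM in HF, with 25317 and 24999.8 CPM in HB ribosome-bound mRNA and 33135 and 26579 CPM in HF ribosome-bound mRNA (ratio change -0.80, SE 0.41, adjusted p = 0.351). Apoa1, the main protein of high-density lipoprotein, had a ratio change of 0.18 (SE 0.55).

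In the translation machinery, 37 of 45 factors were members, 11 rose and 2 fell in mRNA, and 25 of 37 had a ratio change below 0 (medians 0.48 in mRNA, 0.09 in ribosome-bound mRNA and -0.44 in the ratio, 2 called, both lower). Eef2, which moves the ribosome along the mRNA (chromosome 10, 81176631 to 81182509, GRCm38.p6), had 1548 and 1789.9 CPM in HB mRNA and 600.4 and 617 CPM in HF mRNA. In ribosome-bound mRNA Eef2 had 332 and 337 CPM in HB and 541 and 649.8 CPM in HF (ratio change -2.28, SE 0.33, adjusted p = 0.0319). Eif5a, which relieves stalled ribosomes, had an mRNA change of 1.78 and a ribosome-bound change of -0.74 (ratio change -2.53, SE 0.37, adjusted p = 0.0319). Eef1a1, which brings aminoacyl-tRNA to the ribosome, had 1.16 and 0.17 (ratio change -1.003, SE 0.40, adjusted p = 0.278).

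Few ribosomal protein genes met the member limits, 20 of 49 for the large subunit and 13 of 33 for the small one, although 49 and 32 had at least 10 CPM in each mRNA library. For mitochondrial ribosomal proteins it was 3 of 73, with 67 at that mRNA level. The genes left out at that mRNA level missed the ribosome-bound read limit in some library, and the cause was not tested. Counts of ribosomal protein genes are also uncertain, because these mRNAs are short and many have near-identical pseudogenes. The median ratio change was -0.41 for the large and -0.92 for the small subunit, with 2 and 0 calls, both lower. Rpl17 had 3.29 and 3.76 CPM in HB ribosome-bound mRNA and 36.5 and 26.2 CPM in HF ribosome-bound mRNA with no mRNA call (ratio change -2.93, SE 0.48, adjusted p = 0.0319). Rpl41 had an mRNA change of 1.60 and a ribosome-bound change of -1.29 (ratio change -2.90, SE 0.60, adjusted p = 0.0478).

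mRNAs of the translation machinery often begin with a run of pyrimidines, the terminal oligopyrimidine (TOP) tract, through which their translation is regulated. A tract was searched as C followed by at least 7 further C or T on the transcribed strand, in a window of 30 bases that holds 10 bases before and 20 bases from a start given in RefSeq's promoter table (GRCm38.p6, 4076 members with a window, any of a gene's starts counted). It was found in 474 of these (11.6%) and in 10.1% of all 27025 genes with a window. Members with a tract had a median ratio change of -0.06 and those without one -0.02. In ribosomal protein members 12 of 25 had a tract, with a median of 0.01, against -1.22 in the 13 without. A gene without a match in its window may still have a tract at its real start, so nothing is read from this difference. The windows below, with the tract in capitals, are shown because they come from translation genes with ratio changes on both sides of 0.
Eif2s3x: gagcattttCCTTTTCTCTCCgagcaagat
Rpl27a: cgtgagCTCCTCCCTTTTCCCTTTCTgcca
Eef1a1: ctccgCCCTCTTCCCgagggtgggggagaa
Rpl14: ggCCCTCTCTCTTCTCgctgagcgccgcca
They lie at chrX:94212632-94212661 (minus strand) for Eif2s3x, chr7:109519185-109519214 (plus) for Rpl27a, chr9:78481705-78481734 (minus) for Eef1a1 and chr9:120571507-120571536 (plus) for Rpl14. The ratio changes were -2.29 for Eif2s3x, -1.62 for Rpl27a, -1.003 for Eef1a1 and 1.49 for Rpl14, and 0 of these 4 were called. A match describes the letters of the window and is not a measured transcript start.

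Splicing factors were a list with many fallen mRNAs. Of 33 genes 31 were members, and 0 rose and 14 fell in mRNA. The medians were -0.80 in mRNA, 0.10 in ribosome-bound mRNA and 0.63 in the ratio. In the 768 members whose mRNA was lower by 0.5 to 1 they were -0.72, -0.08 and 0.65. A higher ratio is thus not particular to this list. The 2 calls, both higher, were kinases that phosphorylate splicing factors. Clk4 (chromosome 11, 51263114 to 51281770, GRCm38.p6) had 43.3 and 45.0 CPM in HB mRNA and 180.4 and 149 CPM in HF mRNA, with 228 and 218 CPM in HB ribosome-bound mRNA and 124 and 146 CPM in HF ribosome-bound mRNA (ratio change 2.62, SE 0.34, adjusted p = 0.0319). Clk1 fell as much in mRNA (-1.90), and its ribosome-bound level was 70.7 and 74.0 CPM in HB and 77.7 and 92.7 CPM in HF (ratio change 1.66, SE 0.32, adjusted p = 0.0394). Srsf11, a serine/arginine-rich factor, had -2.21 in mRNA and 0.16 in ribosome-bound mRNA, but its HF ribosome-bound values of 229 and 106 CPM were wide apart, and the ratio change of 2.36 (SE 0.68) was not called (adjusted p = 0.129).

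Of the 15 member clock genes, 0 rose and 4 fell in mRNA, with medians of -0.87 in mRNA, -0.20 in ribosome-bound mRNA and 0.21 in the ratio and 0 ratio calls. Per2, a repressor of the clock, had 119 and 175 CPM in HB mRNA and 423 and 463 CPM in HF mRNA, while its ribosome-bound level was 112 and 109.9 CPM in HB and 136 and 89.3 CPM in HF, which overlap (ratio change 1.57, SE 0.49, adjusted p = 0.157). Usp2, whose mRNA and ribosome-bound changes were close as given above, is on the same list. The list of genes with upstream open reading frames or stress control had 14 members, a median ratio change of 0.12 and 1 call. Among them, Oaz1, the antizyme, and Odc1, the ornithine decarboxylase that it targets, both rose in mRNA (1.97 and 1.05), with ribosome-bound changes of -0.08 and -2.005. Oaz1 was called in the ratio (-2.07, SE 0.40, adjusted p = 0.0391) and Odc1 was not (-3.07, SE 0.67, adjusted p = 0.0571).

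The remaining lists had few calls. Among 28 member cytochromes P450, 7 rose and 2 fell in mRNA, and 1 ratio was called, that of Cyp2c29, a drug-metabolizing enzyme with close relatives, at 42.0 and 40.8 CPM in HB ribosome-bound mRNA and 112 and 109.8 CPM in HF ribosome-bound mRNA (ratio change -3.70, SE 0.77, adjusted p = 0.0485). The 39 members of the urea cycle and amino acid breakdown list had 29 ratio changes below 0, a median of -0.47 and 0 calls. For 17 aminoacyl-tRNA synthetases the median was -0.28, for 24 genes of folding in the endoplasmic reticulum -0.27, and for 9 mRNAs with an iron-responsive element -0.76, with 0 calls in each.

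Transcript length moved with both changes. From the shortest to the longest quartile of members (median lengths 1219, 2169, 3360 and 5692 bases, 1287 genes each) the median mRNA change was 0.43, 0.15, -0.06 and -0.35. The ribosome-bound medians were 0.12, -0.02, 0.02 and -0.08, and those of the ratio change -0.28, -0.16, 0.09 and 0.30. Long mRNAs were thus lower in HB in total mRNA and showed little shift in ribosome-bound mRNA. The slope of ribosome-bound on total change was 0.0178, 0.113, 0.186 and 0.205 in these quartiles, and 0.124 with a linear length trend removed. Risen mRNAs had a median length of 1861.5 bases and fallen ones 3809 bases. The part of length, or of anything that goes with it, in the ratio change was not tested beyond that removal, which left 117 called members.

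N6-methyladenosine (m6A) is a mark on mRNA that reader proteins link to decay and translation. Of the members 5022 could be matched to a RefSeq gene, and the summits of the authors' peaks were placed in them. The 1887 members with a peak in all 4 m6A libraries had a median ratio change of 0.12, with 21 called higher and 19 lower, and the 1058 with no peak had -0.26, with 2 higher and 39 lower. Over the matched members 40 were called higher and 87 lower, and of all genes tested 6.49% and 4.02%. These sets also differed in length (medians of 4046 and 1666.5 bases) and in mRNA change (-0.20 and 0.40), as the length quartiles do. Members with a peak in both HB and no HF library (99) had a median of -0.13, and those with a peak in both HF and no HB library (163) had 0.03, against -0.02 over the matched members. Whether a diet-specific peak goes with a ratio change was not tested, and the quartiles of the sets (-0.97 to 0.69 and -0.92 to 0.76) lay over each other.

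Of the genes that write, erase or read m6A, 10 of 19 in the tables were members and 0 were called in the ratio. Fto, a demethylase, had 34.9 and 25.7 CPM in HB mRNA and 12.3 and 13.7 CPM in HF mRNA, but 8.14 and 10.3 CPM in HB ribosome-bound mRNA and 5.20 and 24.0 CPM in HF ribosome-bound mRNA, which overlap (ratio change -1.86, SE 1.31, adjusted p = 0.512). Alkbh5, the other demethylase, had an mRNA change of 0.47 and a ribosome-bound change of 2.004, with 31.3 and 37.0 CPM in HB and 12.1 and 5.04 CPM in HF (adjusted p = 0.347 for the ratio). Zc3h13, of the methylating complex, had -1.64 in mRNA and -0.44 in ribosome-bound mRNA (ratio change 1.19, SE 0.49, adjusted p = 0.295).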

How the data were processed

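Livers were measured as total mRNA, ribosome-bound mRNA and m6A peaks, with 2 libraries per diet and kind. Per the labels, reads were mapped to RefSeq RNA sequences, and the deposited read counts per gene merge splice variants and are not normalized. The deposited RPKM values were scaled by the authors to the longest transcript and the library's reads. For m6A, trimming used Trimmomatic 0.36 and alignment Tophat 2.0.13, per the labels' protocols. With no role stated, HOMER 4.8, MACS2 2.1.0.20151222, edgeR, HISAT2 2.0.4, cutadapt 1.9.3, HTSeq 0.6.0 and the build mm10 are named in the submitters' processing notes. The deposited peak lists hold, per the file headers, a pileup signal, −log10 p-values and q-values, and a fold enrichment (a ratio over background), of which only positions were used.

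Counts were analysed with edgeR 4.0.16 (TMM, filterByExpr, quasi-likelihood F tests, Benjamini-Hochberg) in R 4.3.3. The interaction fit had 7 libraries (HB ribosome-bound pair summed, 3 residual degrees of freedom, 12634 genes), which assumes that the single HB ribosome-bound sample varies like the others. mRNA calls came from the 4 mRNA libraries (12817 genes). Ribosome-bound changes came from a fit of the ribosome-bound libraries alone. Printed CPM are TMM scaled, while the member limits use library totals. A fitted log2 change adds a prior count of 0.5, and SE is its size over the square root of F. Alternatives were other scaling, no filter, DESeq2 1.42.0, limma 3.58.1 (voom, and log2(RPKM + 1)), 8 libraries with or without a replicate block, a length trend, other member limits and each library left out.

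Members and lists were chosen with earlier results of these data known. Named genes were the 8 largest called ratio changes in each direction with no overlap of ratios, 4 per class of transmitted share among mRNAs that were called and changed at least 2-fold with replicate pairs within 1 on the log2 scale, up to 3 of each list by absolute ratio change, and a fixed set. Clk1, Mthfd1, Ndufa5 and the tract genes Rpl14 and Rpl27a were named after their values were seen. They are not among the named genes counted under other settings at the end. Results of some genes are not reported here.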

Additional observations from a re-analysis of the deposited data

Results flagged for a closer look

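The change with diet differed between ribosome-bound and total mRNA in 131 of the 5148 members by edgeR's interaction test, and that difference is why they are listed here. The ratio was higher in HB in 42 and lower in 89, while 10.5% of all 12634 genes tested were called (6.49% higher, 4.02% lower). With library totals in place of TMM scaling it was higher in 70 members and lower in 62. No group held 4 or more libraries, so single libraries were not checked for standing apart within a group.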

How the results depend on the processing

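The slope, 0.142, lay between 0.117 and 0.166 with 1 library left out and between 0.124 and 0.149 under the other settings, RPKM included. The count of 131 called members was 136 with DESeq2's size factors, 132 with library totals and 117 with the length trend removed. With library totals the median of all genes shifted to 0.24, and 47.0% of calls were lower, against 67.9%. It was 84 with no filter, 590 with 8 libraries and no replicate block, 680 with DESeq2 (all 131 among them), 69 with limma on log2(RPKM + 1) (64 of them shared) and 3 with limma voom and quality weights. With 1 library left out it ran between 0 and 1314. The 0 came without each mRNA library, and the highest counts, 1200 and 1314, without HF ribosome-bound replicate 1 and 2, where the spread comes from mRNA libraries alone. Same-numbered deviations of mRNA and ribosome-bound libraries correlated weakly in HF (0.226). In HB (0.0394) pairing cannot be judged, because the ribosome-bound pair is 1 sample. Between diets the correlation was -0.0890 in mRNA and 0.0191 in ribosome-bound mRNA. With the replicate block on 8 libraries 410 were called. The median ratio change of risen mRNAs, -1.21, ran from -1.73 to -1.14 and that of fallen ones, 1.15, from 1.07 to 1.44 with 1 library left out. For risen mRNAs it was -1.32 at 2-fold or more and -1.11 with RPKM (360 risen members, beside 924 fallen ones). Chosen in replicate 1 and measured in replicate 2 it was -0.890 for risen and 0.573 for fallen ones. Of 33 named genes called in the ratio, 28 were called with library totals, 27 with no filter, 28 with the length trend removed, 19 with RPKM, 1 with voom and 0 without any 1 mRNA library. Pde2a, at -0.01 and not called, ran between -0.725 and 1.46 with 1 library left out, the highest value without HF ribosome-bound replicate 1 (adjusted p = 0.0367, spread from mRNA libraries alone). The cause of these shifts was not tested. Depth limits the shallow ribosome-bound genes most, and the HB ribosome-bound arm rests on 1 sample.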
